A study of Mus musculus with 9 samples.

Results

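The tumor suppressor p53 and 9 of its best known target genes were followed in embryonic mouse hearts from which the chromatin architecture factor CTCF had been deleted. The set was chosen by name: *Trp53*, which encodes p53, and *Cdkn1a*, *Mdm2*, *Ccng1*, *Bax*, *Bbc3*, *Pmaip1*, *Phlda3*, *Trp53inp1* and *Sesn2*. All 10 genes were among the 14011 genes with a deposited value. RNA was sequenced from whole hearts at E10.5 of a mixed strain, in 9 libraries of 3 genotypes (n = 3 per genotype), each made from a pool of 6 hearts. Controls did not carry Cre, and the labels give them as *Ctcf* fl/fl whereas the study's text gives *Ctcf* fl/+ for the RNA-seq and names both genotypes among its controls in general. Heterozygotes were *Ctcf* fl/+; *Nkx2.5-Cre*/+ and homozygotes were *Ctcf* fl/fl; *Nkx2.5-Cre*/+. The *Nkx2.5-Cre* driver recombines floxed alleles in cardiac progenitors. In homozygotes at E10.5 the study found no cardiomyocyte with CTCF protein, while the endocardium still had it. Cre was therefore shared by heterozygotes and homozygotes, and a comparison with controls cannot separate the driver from the deletion. Values are given in CPM after scaling between libraries, called normalized values here.

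In unstressed cells p53 protein is made and destroyed continuously, because MDM2 marks it for degradation. When DNA damage or another stress blocks that turnover, p53 accumulates and binds DNA as a tetramer at pairs of a decamer with a central CATG-like core. It then activates genes that stop the cell cycle (*Cdkn1a*), trigger apoptosis (*Bax*, *Bbc3*, *Pmaip1*) and limit p53 itself (*Mdm2*), so the RNA of its targets is commonly read as a measure of p53 activity, while the RNA of *Trp53* itself changes little. In the developing brain, loss of CTCF is known to provoke apoptosis through p53 and PUMA, the product of *Bbc3*. In the hearts of this study, the number of cardiomyocytes stained by TUNEL, a mark of dying cells, was reported as unaltered in homozygotes at E10.5. The question here was whether these genes differed in *Ctcf*-deleted hearts.

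The promoters of 4 members are shown first, because 3 of them hold a paired p53 site close to the start of the gene and the fourth is that of *Phlda3*, on which the results turn. RefSeq promoter windows of 300 bases (build GRCm38.p6) were found for 8 of the 10 members, in 11 windows, and *Pmaip1* and *Trp53inp1* did not match. The 250 bases before the annotated start are printed on the strand of the gene. Capitals mark p53 decamers that form a pair with a spacer of at most 13 bases and at most 1 mismatch in all, and both strands were covered because the decamer reads the same on each.
*Cdkn1a*, upstream start, chr17:29090729-29090978, plus strand: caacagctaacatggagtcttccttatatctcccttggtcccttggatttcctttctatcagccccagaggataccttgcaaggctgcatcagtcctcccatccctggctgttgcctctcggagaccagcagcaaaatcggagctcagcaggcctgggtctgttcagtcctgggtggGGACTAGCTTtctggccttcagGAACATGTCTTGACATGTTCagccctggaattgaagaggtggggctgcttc
*Bax*, chr7:45466899-45467148, minus strand: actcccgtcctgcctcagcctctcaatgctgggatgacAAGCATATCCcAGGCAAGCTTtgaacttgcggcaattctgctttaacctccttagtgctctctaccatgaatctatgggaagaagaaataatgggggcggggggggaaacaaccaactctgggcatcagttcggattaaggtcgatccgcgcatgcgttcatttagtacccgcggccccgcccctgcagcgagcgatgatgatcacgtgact
*Ccng1*, chr11:40755287-40755536, minus strand: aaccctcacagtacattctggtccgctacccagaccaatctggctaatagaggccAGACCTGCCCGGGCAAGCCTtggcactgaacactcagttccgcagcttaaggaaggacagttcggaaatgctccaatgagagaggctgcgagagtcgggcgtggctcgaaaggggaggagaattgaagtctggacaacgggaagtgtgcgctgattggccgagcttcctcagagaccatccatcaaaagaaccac
*Phlda3*, chr1:135765835-135766084, plus strand: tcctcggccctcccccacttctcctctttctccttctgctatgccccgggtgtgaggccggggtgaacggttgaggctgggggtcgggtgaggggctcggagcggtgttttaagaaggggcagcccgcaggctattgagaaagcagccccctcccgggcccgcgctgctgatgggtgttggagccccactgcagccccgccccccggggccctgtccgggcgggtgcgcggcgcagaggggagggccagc
In *Cdkn1a*, the upstream of 2 annotated starts held 2 pairs, one without a mismatch from base 178 of the window with a spacer of 12 bases, and one with 1 mismatch and no spacer from base 200. The *Bax* pair began at base 39 with a spacer of 1 base and 1 mismatch. The *Ccng1* pair began at base 56 with no spacer and 1 mismatch. Paired sites were thus present in 3 of the 11 member windows, against 1.09% of all 32851 windows. The members were chosen as known p53 targets and some windows of 1 gene overlap, so such shares only describe the set. A single exact decamer was present in 5 of the 11, those 3 and the windows of *Mdm2* and *Trp53*, against 8.36% of all windows. No pair was in the windows of *Phlda3*, *Sesn2*, *Bbc3*, *Mdm2* or *Trp53*. The window of *Phlda3*, past the bases printed above, ended in gaacatgt, which matched the decamer as far as it went. A site that crosses a window edge, or that lies further into a gene, could not be scored, so a window without a pair does not show a gene without one. The decamers of the 2 *Cdkn1a* pairs overlapped in 1 shared decamer, from base 200. A match to these letters is a description of the sequence and no evidence of binding.

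Several features of the libraries touch the values below. *Ctcf* RNA was 121 ± 0.837 in controls (mean ± SD, n = 3 here and throughout), 97.3 ± 3.26 in heterozygotes and 81.4 ± 2.85 in homozygotes, so the homozygotes kept 67.0% of the control level in whole hearts. The difference between homozygotes and controls was a log2 fold change of -0.57 ± 0.06 (SE), adjusted p = 2.9e-05 (limma). Total reads ranged from 4294537 to 11629365, 1 read was worth 0.0901 to 0.231 units of the normalized value, and the total serves below as the name of each control and heterozygote library. All 7 erythroid markers rose in homozygotes against both other groups, although under quantile normalization 6 of the 7 were above 0 and 4 were called against controls, and 5 were called against heterozygotes, and 4 were called against controls after correction for gene length. Their summed value was 28322 to 40269 in controls, 22603 to 37866 in heterozygotes and 49762 to 65556 in homozygotes. The cardiomyocyte markers summed to 15507 to 17978 in controls, 17440 to 20867 in heterozygotes and 13888 to 17317 in homozygotes. In homozygotes 1 of the 7, *Nkx2-5*, fell against controls and 3, *Nkx2-5*, *Myh6* and *Myh7*, fell against heterozygotes. The median log2 fold change of the 7 against heterozygotes was -0.55, and -0.30 after correction for gene length. DESeq2 on the recovered reads also called *Nkx2-5* lower in heterozygotes, which carry the *Nkx2.5-Cre* driver, than in controls. Of 6 cushion mesenchyme markers, *Postn* and *Pdgfra* fell against both other groups, and the 6 summed to 811 to 868 in controls, 806 to 836 in heterozygotes and 668 to 800 in homozygotes. Of 7 endothelial and endocardial markers, *Kdr* and *Npr3* fell and *Emcn* rose against controls, and *Kdr* fell against heterozygotes. The call of *Kdr* against heterozygotes was lost after correction for gene length, and that of *Emcn* against controls with DESeq2 on the recovered reads. In whole hearts, fewer cells of a type and less RNA per cell cannot be told apart. The control library of 8457617 reads stood apart in the 4 liver and endoderm markers, which summed to 774 against 56.6 and 62.9 in the other controls.

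Across the set, *Phlda3* was higher in homozygotes and no other member passed the test in any comparison. That is 1 of the 10 genes called higher and 0 lower in homozygotes against controls, where 15.2% of all genes were called and 7.19% were called higher. The count was also 1 higher against heterozygotes, where 13.6% of all genes were called and 6.87% were called higher. For heterozygotes against controls limma called 0 members, where it called 0.143% of all genes and 0.0928% higher. In that comparison 0 members had an unadjusted p under 0.05, against 7.37% of all genes, and edgeR and DESeq2 on the recovered reads also called 0. The homozygotes lay above all controls in 3 members (*Cdkn1a*, *Bax* and *Phlda3*), against 16.6% of all genes, and above all heterozygotes in 2 (*Bax* and *Phlda3*), against 15.3%. The heterozygotes lay above all controls in 2 (*Mdm2* and *Phlda3*), against 7.41%. No member lay wholly lower, against 16.5%, 15.5% and 6.93% of all genes in the 3 comparisons. The median log2 fold change of the 10 genes was 0.09 in homozygotes against controls, 0.09 against heterozygotes and 0.05 in heterozygotes against controls, beside medians of all genes of -0.00 in each. The share of members called was thus near or below that of all genes in both comparisons of homozygotes.

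**Figure D1:**
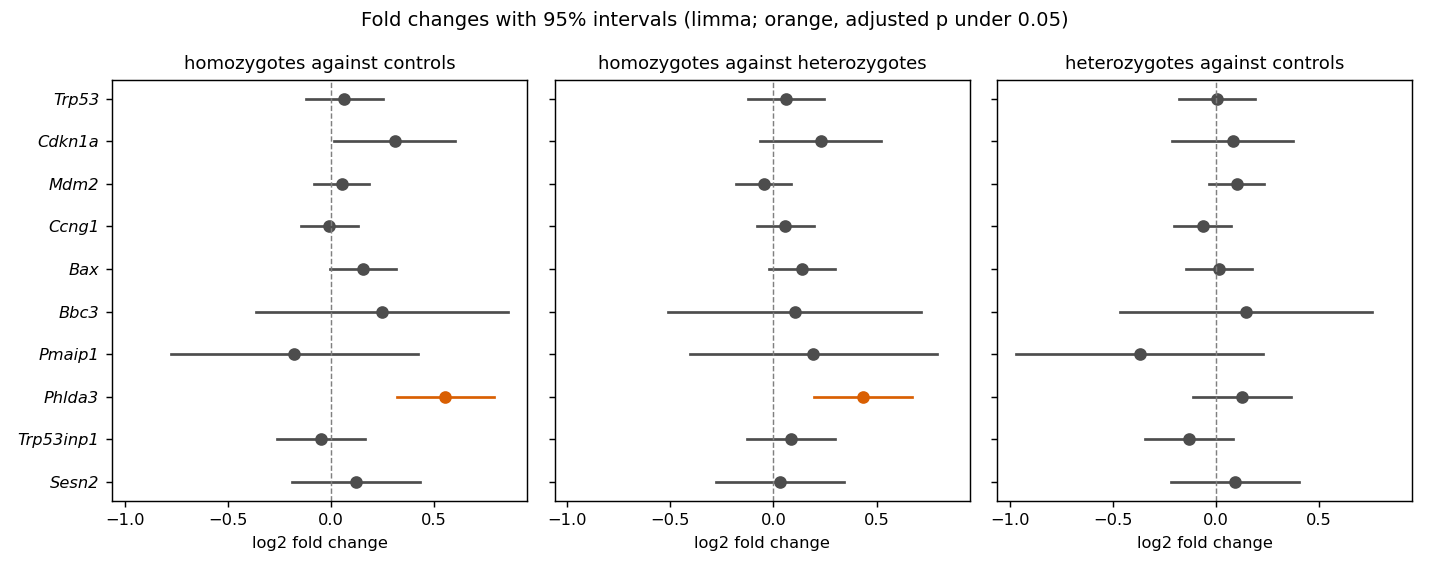
Log2 fold change of each of the 10 genes with its 95% interval (limma) in the 3 comparisons, which share libraries. In homozygotes the interval of *Phlda3* lies above 0 against both other groups (0.56 and 0.43), that of *Cdkn1a* lies just above 0 against controls (0.31) with an adjusted p of 0.145, and those of *Bbc3* and *Pmaip1* are the widest.

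Relative to the length of their exons, the members spanned a wide range of expression. The lengths joined all annotated exons of a gene, with 3512 bases for *Ccng1*, 1339 for *Bax* and 4045 for *Trp53*. Their longest protein-coding transcripts had 3512, 1049 and 1867 bases. The order of *Ccng1* and *Bax* and the gap between *Bax* and *Trp53* therefore depend on the length used. *Ccng1* was the most abundant, with a mean of 53.7 normalized units per kb over the 9 libraries, and *Pmaip1* the least, with 0.888. *Bax* followed at 43.3, *Trp53* at 21.1, *Phlda3* at 16.4, *Mdm2* at 12, *Cdkn1a* at 7.56, *Trp53inp1* at 5.94, *Sesn2* at 3.65 and *Bbc3* at 1.98 units per kb. Among all placed genes, this put *Ccng1* at percentile 92.8, *Cdkn1a* at 54.1 and *Pmaip1* at 12.6. The ranges over libraries did not overlap between *Ccng1* and *Bax*, *Bax* and *Trp53*, *Phlda3* and *Mdm2*, *Mdm2* and *Cdkn1a*, or *Trp53inp1* and *Sesn2*. Neighboring levels overlapped for *Trp53* and *Phlda3*, *Cdkn1a* and *Trp53inp1*, *Sesn2* and *Bbc3*, and *Bbc3* and *Pmaip1*. The proapoptotic pair *Bbc3* and *Pmaip1* rested on 13 to 52 and 9 to 34 reads per library. Their intervals were the widest, so only large differences were detectable for them, and the parts of depth and of spread between pools were not separated.

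**Figure D2:**
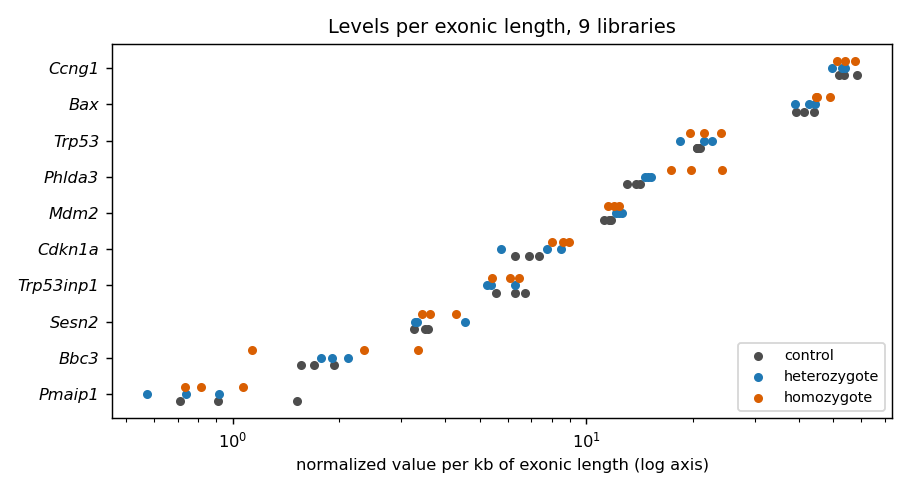
Level of each of the 10 genes in normalized units per kb of exonic length (log axis), 1 point per library, with controls, heterozygotes and homozygotes in separate colors. *Ccng1* lies highest (mean 53.7) and *Pmaip1* lowest (mean 0.888), and the genotypes overlap for most genes, with the 3 homozygote points of *Phlda3* to the right of the others.

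*Trp53* (ENSMUSG00000059552, chr11:69393861-69405375, NCBIM37, plus strand) did not differ between the genotypes beyond the spread between libraries. Its normalized value was 84.8, 83.3 and 83.5 in the control libraries of 8457617, 9654014 and 6698891 reads. In the heterozygote libraries of 9896345, 7946683 and 4294537 reads it was 87.1, 92.0 and 74.4. In homozygote replicates 1, 2 and 3 it was 79.6, 87.2 and 97.6. The controls lay close together, and the other groups spread to both sides of them. The log2 fold change of homozygotes against controls was 0.07, with a 95% interval from -0.12 to 0.25, and against heterozygotes 0.06. A sequence on chr17:54558919-54560086 matched 62.7% of the *Trp53* transcript at an identity of at least 95%, so reads could have been shared between the gene and this copy and the value of *Trp53* is uncertain. No such copy was found for the other members.

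*Mdm2* (ENSMUSG00000020184, chr10:117125944-117147814, minus strand), the ubiquitin ligase that is both target and inhibitor of p53, was nearly flat. It was 59.8, 56.9 and 58.8 in controls, 62.7, 61.5 and 64.0 in heterozygotes, and 61.0, 62.9 and 58.3 in homozygotes, in the same order of libraries. All 3 heterozygotes lay above all 3 controls, while homozygotes overlapped both groups. The log2 fold change of homozygotes against controls was 0.05, with a 95% interval from -0.08 to 0.19, the narrowest interval among the members. *Ccng1* (ENSMUSG00000020326, chr11:40562054-40568813, minus strand), which encodes cyclin G1 and recruits a phosphatase that activates MDM2, was 183, 205 and 188 in controls, 185, 175 and 190 in heterozygotes, and 190, 203 and 180 in homozygotes. The groups overlapped throughout, and the log2 fold change of homozygotes against controls was -0.01, with a 95% interval from -0.15 to 0.13. Hence in homozygotes against controls the 2 members with the narrowest intervals, *Mdm2* and *Ccng1*, stayed within 0.19 of 0 on the log2 scale. Both are target genes that act on p53 itself. In heterozygotes against controls the intervals ran from -0.03 to 0.23 for *Mdm2* and from -0.20 to 0.07 for *Ccng1*.

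*Cdkn1a* (ENSMUSG00000023067, chr17:29227924-29237667, plus strand) encodes p21, the inhibitor of cyclin-dependent kinases through which p53 arrests the cell cycle. Its normalized value was 15.3, 16.3 and 14.0 in controls, and 12.8, 18.9 and 17.2 in heterozygotes. In homozygotes it was 17.8, 19.9 and 19.1. All homozygotes lay above all controls, and the heterozygotes overlapped both groups, from below all controls to between the homozygotes. The log2 fold change of homozygotes against controls was 0.31, with a 95% interval from 0.02 to 0.60, and the adjusted p of 0.145 (limma, over all genes tested) did not pass the threshold. Against heterozygotes it was 0.23, with an adjusted p of 0.299, and 0.07 without the heterozygote library of 9896345 reads. The summed erythroid markers had the same order as *Cdkn1a* among the heterozygotes (22603, 37866 and 29777) and another order among the homozygotes (49762, 56022 and 65556) and the controls (40269, 31148 and 28322), and their part in the difference was not tested.

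*Bax* (ENSMUSG00000003873, chr7:52717065-52722268, minus strand), the effector that permeabilizes the outer mitochondrial membrane, was 55.5, 59.1 and 52.4 in controls and 59.4, 57.2 and 52.2 in heterozygotes. In homozygotes it was 65.7, 60.0 and 60.4. Homozygotes lay above all 6 other libraries, by a margin that was small beside the spread within each group. The log2 fold change of homozygotes was 0.16 against controls, with a 95% interval from -0.00 to 0.32 and an adjusted p of 0.181, and 0.14 against heterozygotes, with an adjusted p of 0.243 (limma). After correction for gene length, the value against controls was 0.04. Against heterozygotes the lowest value over the 19 other settings was also 0.04.

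*Bbc3* and *Pmaip1* encode PUMA and NOXA, BH3-only proteins that bind antiapoptotic BCL2 family members. *Bbc3* (ENSMUSG00000002083, chr7:16894965-16903554, plus strand) was 3.90, 3.41 and 3.14 in controls, 3.58, 3.85 and 4.27 in heterozygotes, and 6.70, 2.28 and 4.73 in homozygotes. Homozygotes thus held both the highest and the lowest value, and the 95% interval of the log2 fold change against controls ran from -0.36 to 0.86. *Pmaip1* (ENSMUSG00000024521) was 4.02, 1.88 and 2.41 in controls, 1.52, 1.96 and 2.42 in heterozygotes, and 2.16, 1.95 and 2.84 in homozygotes. Its highest value was in the control library that stood apart in liver and endoderm markers, and without that library the log2 fold change of homozygotes against controls went from -0.18 to 0.08. For *Bbc3*, leaving out homozygote replicate 1 moved it from 0.25 to -0.06.

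*Trp53inp1* (ENSMUSG00000028211, chr4:11083578-11101526, plus strand), which encodes a stress-induced nuclear protein that promotes p53-dependent death and autophagy, was 40.8, 35.9 and 43.6 in controls, 40.8, 34.0 and 34.9 in heterozygotes, and 35.1, 41.9 and 39.4 in homozygotes. *Sesn2* (ENSMUSG00000028893, chr4:132047947-132066416, minus strand), a sestrin that restrains mTORC1 and that is also induced by ATF4, was 12.16, 12.45 and 11.33 in controls, 11.4, 11.5 and 15.8 in heterozygotes, and 14.9, 12.6 and 11.9 in homozygotes. The locus of *Sesn2* overlaps that of *Gm12981*, with 0 shared exonic bases. For both genes the 3 groups overlapped, and the log2 fold changes of homozygotes against controls were -0.05 for *Trp53inp1* and 0.12 for *Sesn2*. Without homozygote replicate 1 that of *Sesn2* was 0.03.

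*Phlda3* (ENSMUSG00000041801, chr1:137662696-137665713, plus strand) was the member called different. It encodes a small protein made of a pleckstrin homology domain that competes with AKT for membrane phosphoinositides and so represses AKT. Its normalized value was 21.6, 22.2 and 20.4 in controls and 23.3, 23.8 and 23.0 in heterozygotes. In homozygotes it was 37.8, 27.2 and 30.9. The 3 groups did not overlap, with controls lowest, heterozygotes next and homozygotes highest and most spread. Homozygotes were 1.47-fold above controls (95% interval 1.25 to 1.73, log2 fold change 0.56 ± 0.11 SE, adjusted p = 0.00507, limma). They were 1.35-fold above heterozygotes (95% interval 1.14 to 1.59, log2 fold change 0.43, adjusted p = 0.0202). Heterozygotes were 1.09-fold above controls (95% interval 0.924 to 1.28, adjusted p = 0.874). These comparisons share libraries, so the rise in homozygotes was not seen independently in each.

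The call of *Phlda3* against controls held under each of 19 other settings, with log2 fold changes from 0.43 to 0.67. Against heterozygotes it was lost with limma without the mean-variance trend (adjusted p = 0.0545). It was also lost without the heterozygote library of 9896345 reads (log2 fold change 0.43), without that of 4294537 reads (0.42), and without homozygote replicate 1 (0.31) or 3 (0.45), with adjusted p from 0.0525 to 0.0621. *Phlda3* and the erythroid markers were both higher in homozygotes than in the other groups, whereas in heterozygotes against controls the median log2 fold change of the 7 markers was -0.15 and that of *Phlda3* 0.12, neither with a call. The cardiomyocyte sum of the homozygotes overlapped that of the controls (13888 to 17317 against 15507 to 17978) and lay below that of the heterozygotes. Within groups, homozygote replicate 1 had the lowest erythroid sum of the homozygotes (49762) and the highest *Phlda3* (37.8). The heterozygote sums ran from 22603 to 37866 while *Phlda3* stayed between 23.0 and 23.8. The epicardial markers were also higher in homozygotes, where 3 of 5 rose against each other group (*Wt1*, *Tbx18* and *Upk3b*). Their summed value was 372 to 429 in controls, 390 to 420 in heterozygotes and 496 to 565 in homozygotes. The epicardial sums of heterozygotes and controls thus overlapped, whereas *Phlda3* was higher in all heterozygotes than in all controls. Homozygote replicate 1 was highest and replicate 2 lowest in both the epicardial sum and *Phlda3*, and the heterozygotes also had the same order in both. Among controls the order differed, as the library of 8457617 reads had the lowest epicardial sum and that of 6698891 reads the lowest *Phlda3*. The 5 macrophage markers summed to 12.4 to 22.4 in homozygotes, above heterozygotes (10.3 to 12.1), while controls reached 14.1. Of these markers, limma called 1 higher against heterozygotes and 0 against controls. With edgeR and DESeq2 on the recovered reads, 0 were called in either comparison. The part of any of these cell types in the result of *Phlda3* was not tested.

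**Figure D3:**
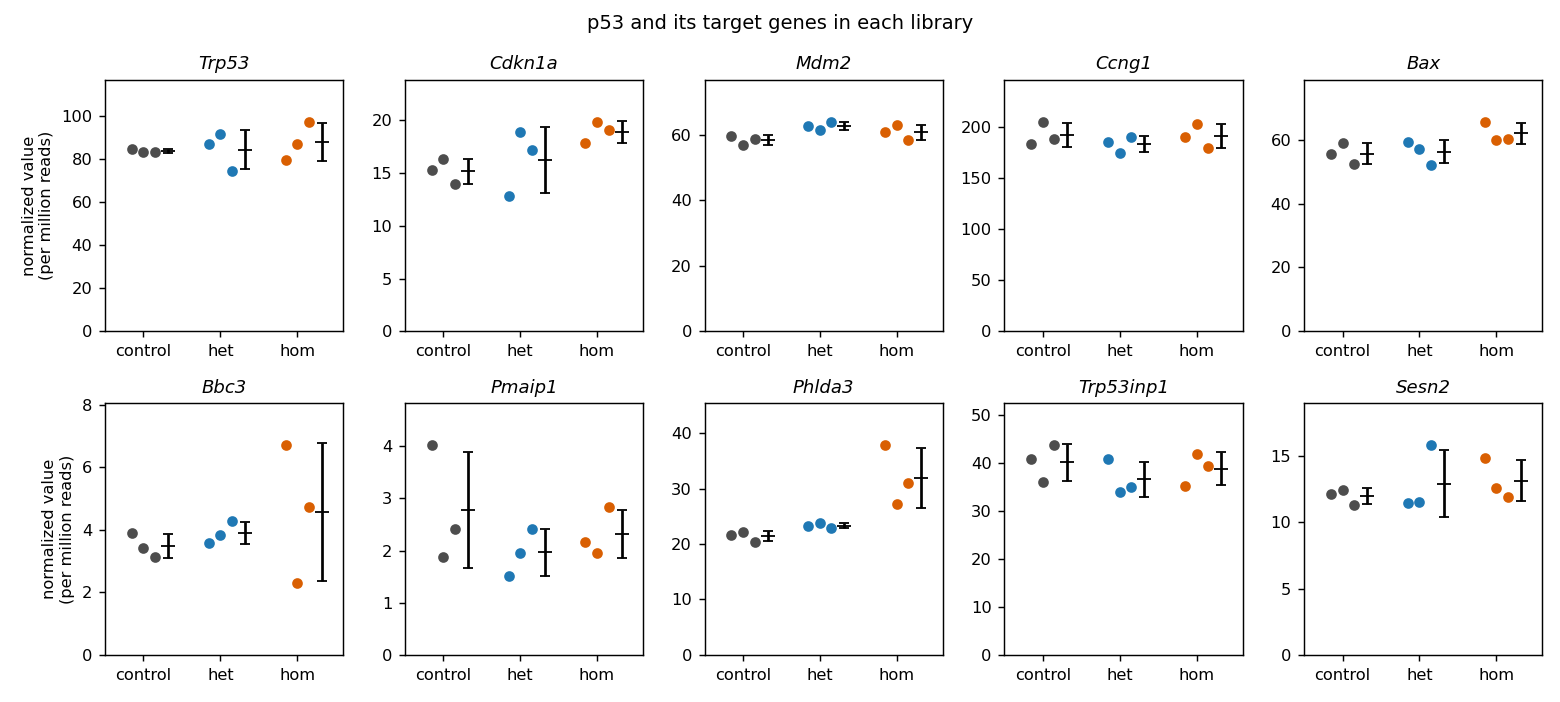
Normalized value (CPM) of the 10 genes in each library, 1 panel per gene with its own axis from 0, and bars for the mean ± SD of 3 libraries per genotype (het, heterozygote, hom, homozygote). The homozygotes lie above the other 6 libraries for *Bax* and *Phlda3* and above the controls for *Cdkn1a*, whereas the groups overlap for *Trp53*, *Ccng1*, *Bbc3*, *Pmaip1*, *Trp53inp1* and *Sesn2*.

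Upstream of p53, 20 of 23 regulators were in the table, and in homozygotes against controls 2 of them rose, 3 fell and the median log2 fold change was -0.02, where 15.2% of all genes were called. *Atm* and *Atr*, the kinases that signal DNA breaks and stalled replication to p53, fell by 0.41 and 0.35 on the log2 scale (adjusted p = 0.00663 and 0.0105, limma). *Atm* was 45.9 ± 4.44 in controls, 38.8 ± 2.13 in heterozygotes and 34.2 ± 1.65 in homozygotes, and *Atr* was 51.3 ± 2.62, 42.1 ± 1.24 and 40.3 ± 3.53. For both genes the Cre-carrying heterozygotes already lay below all controls, without passing the test (adjusted p = 0.541 and 0.346), and homozygotes were not called against them (adjusted p = 0.2 and 0.639). *Ep300*, which encodes a coactivator that acetylates p53, had a log2 fold change of -0.29. *Rpl11* and *Rpl23* encode ribosomal proteins that bind and inhibit MDM2 when ribosome assembly fails, and both rose by 0.29. *Rpl5*, their partner in binding MDM2 and named after its values were seen, was 76.0 ± 2.86 in controls, 67.0 ± 3.13 in heterozygotes and 70.3 ± 1.44 in homozygotes (adjusted p = 0.258 against controls, limma). *Mdm4*, the partner and relative of *Mdm2*, and *Ppm1d*, the phosphatase that ends the p53 response, had log2 fold changes of -0.15 and 0.15 that did not pass the test. Homozygotes also differed from heterozygotes in 5 of the 20, where 13.6% of all genes were called, with *Rpl11* (0.32), *Rpl23* (0.34), *Chek2* (0.51), the checkpoint kinase that phosphorylates p53, and *Rchy1* (0.34), a ubiquitin ligase for p53, higher, and *Trp53bp1* (-0.21), a DNA break adaptor, lower. These calls depended on the processing. After correction for gene length 1 regulator rose and 0 fell against controls, with a median of 0.04. Then *Atm* (-0.25), *Atr* (-0.23), *Ep300* (-0.11), *Rpl23* against controls (0.21) and *Trp53bp1* (-0.07) were no longer called, and under quantile normalization *Rpl11* and *Rpl23* against controls (0.19 and 0.15) were not.

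Among the regulators, several calls also rested on single libraries. That of *Ep300* was lost without homozygote replicate 1 or 3 or the control library of 8457617 or 6698891 reads, at -0.28 to -0.25. Those of *Rpl11* (0.21) and *Rpl23* (0.23) against controls were lost without the control library of 6698891 reads, and that of *Rpl23* also without homozygote replicate 3 (0.23). The call of *Chek2* was lost without the heterozygote library of 9896345 reads or homozygote replicate 1 or 3, at 0.39 to 0.52, and that of *Rchy1* without the same heterozygote library (0.31). *Trp53bp1* was not called when 1 of 6 libraries was left out, namely any heterozygote library, homozygote replicate 2 or 3, or the control library of 9654014 reads, at -0.24 to -0.17.

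A wider list of 33 other p53 target genes, of which 32 were measured, was read beside the members. In homozygotes against controls 1 rose, 3 fell and the median log2 fold change was 0.03, and against heterozygotes 1 rose and 0 fell, beside 15.2% and 13.6% of all genes called. *Zmat3*, which encodes an RNA-binding protein that stabilizes some messages of the p53 response, fell by 0.59 (30.9 ± 2.18 in controls, 24.6 ± 2.95 in heterozygotes and 20.5 ± 3.44 in homozygotes, adjusted p = 0.00803 against controls, limma). *Polk*, a DNA polymerase that copies past lesions, fell by 0.57, and *Plk2*, a polo-like kinase, fell by 0.26. *Rps27l*, a ribosomal protein paralog, rose by 0.32 against controls and by 0.45 against heterozygotes. *Sesn1*, a relative of *Sesn2*, had a log2 fold change of -0.11 against controls that did not pass the test. *Zmat3* was called under each of the 19 other settings. The call of *Polk* was lost without homozygote replicate 1 or 2 or the control library of 6698891 reads (-0.52 to -0.47), that of *Plk2* without any homozygote replicate or the control library of 9654014 or 6698891 reads (-0.28 to -0.20), and that of *Rps27l* against controls without homozygote replicate 3 or the control library of 6698891 reads (0.25 and 0.24) and after correction for gene length (0.13).

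Whereas *Bax* was not called, several genes of the BCL2 family outside the set were, both promoters and inhibitors of cell death. Of 20 measured genes of intrinsic apoptosis outside the set, 1 rose and 4 fell in homozygotes against controls (median log2 fold change -0.10), and 2 rose and 3 fell against heterozygotes (median -0.08), beside 15.2% and 13.6% of all genes called. *Bak1*, which encodes the other pore-forming effector beside BAX, was 46.2, 52.9 and 49.3 in controls, 46.9, 43.1 and 52.2 in heterozygotes, and 25.5, 26.5 and 26.6 in homozygotes. The homozygotes lay far below both other groups, which overlapped. The log2 fold change was -0.90 against controls (adjusted p = 2.2e-05) and -0.84 against heterozygotes (adjusted p = 6.2e-05, limma), and *Bak1* was called under every setting tried. The antisense gene *Ggnbp1* shares 357 exonic bases with *Bak1*, and its mean value was 8.49 in controls, 8.58 in heterozygotes and 9.40 in homozygotes.

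*Bcl2*, the founding antiapoptotic gene of the family, fell against controls by 0.52 (32.7 ± 1.14 in controls, 28.2 ± 0.778 in heterozygotes and 22.7 ± 1.92 in homozygotes, adjusted p = 0.00181, limma) and against heterozygotes by 0.31. The antiapoptotic *Bcl2l2* fell by 0.33 and 0.34, and *Xiap*, a caspase inhibitor, fell by 0.24 against controls, with homozygotes (104 ± 3.92) overlapping heterozygotes (106 ± 2.19). *Mcl1*, another antiapoptotic member of the family, rose by 0.28 against heterozygotes (adjusted p = 0.00491). *Cycs*, the cytochrome c that activates caspases once it leaves mitochondria, rose by 0.23 against each. *Bcl2* against controls and *Mcl1* against heterozygotes were called under each of the 19 other settings. The call of *Bcl2* against heterozygotes was lost without any heterozygote library or homozygote replicate 3 (-0.33 to -0.24), and those of *Xiap* (-0.22) and *Cycs* (0.23) against controls without the control library of 6698891 reads. *Cycs* against heterozygotes was not called without the heterozygote library of 7946683 or 4294537 reads or homozygote replicate 2 (0.18 to 0.23). *Bcl2l2* was not called against controls without homozygote replicate 1 or 3 or the control library of 8457617 or 9654014 reads (-0.33 to -0.26), nor against heterozygotes without any heterozygote library or homozygote replicate 1 or 3 (-0.36 to -0.27). After correction for gene length, *Xiap* (-0.11) and both comparisons of *Bcl2l2* (-0.31 and -0.31) were not called either.

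**Figure D4:**
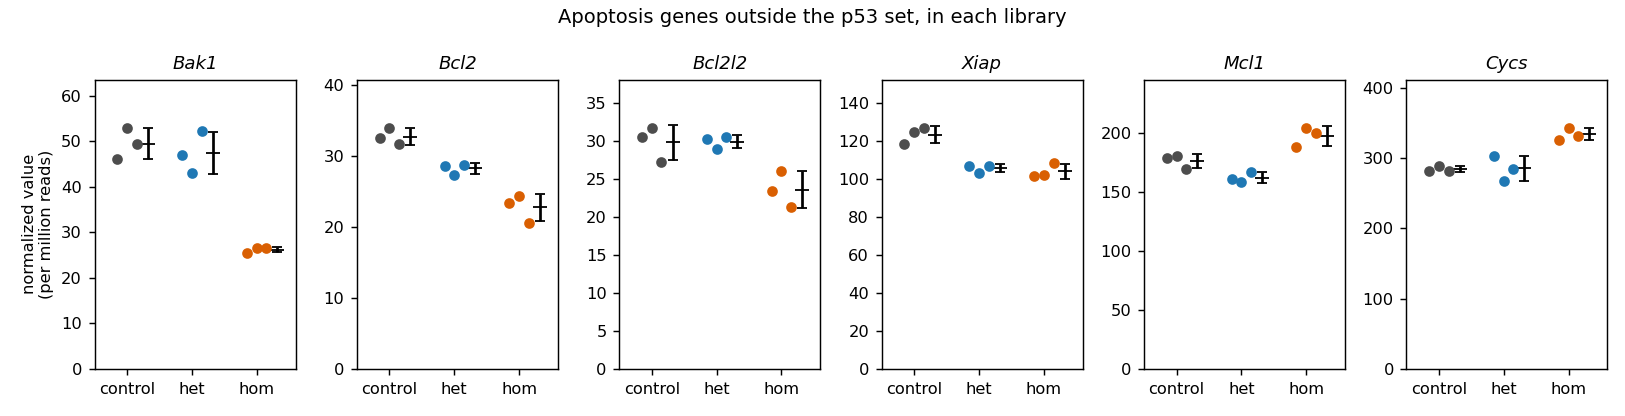
Normalized value (CPM) of 6 apoptosis genes outside the p53 set in each library, with bars for the mean ± SD of 3 libraries per genotype and axes from 0. *Bak1* is at 26.2 ± 0.582 in homozygotes against 49.5 ± 3.38 in controls, *Bcl2* and *Bcl2l2* are also lowest in homozygotes, and *Mcl1* and *Cycs* are highest there.

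The members were further read beside their own relatives, 11 of which were measured. Against controls 1 rose and 2 fell, *Bak1* among them, and against heterozygotes 1 rose and 1 fell, beside 15.2% and 13.6% of all genes called. *Sesn3* fell by 0.45 in homozygotes against controls and *Ccng2* rose by 0.23, whereas *Cdkn1b*, which encodes the p27 relative of p21, had a log2 fold change of -0.23 that did not pass the test. *Ccng2* was at 35.3 ± 0.991 in controls, 41.0 ± 0.28 in heterozygotes and 41.5 ± 1.42 in homozygotes. *Phlda2*, the imprinted relative of *Phlda3*, was low throughout, at 6.23, 1.07 and 0.658 in controls, 0.736, 1.2 and 0.577 in heterozygotes, and 3.75, 3.81 and 4.37 in homozygotes. It was called against heterozygotes (log2 fold change 1.77, adjusted p = 0.031, limma), and not against controls, where the library that stood apart in liver and endoderm markers was highest. The call of *Phlda2* was lost without the heterozygote library of 9896345 or 4294537 reads or any homozygote replicate (1.62 to 1.80) and with edgeR on the recovered reads (2.28). The call of *Sesn3* was lost without homozygote replicate 2 or 3 or the control library of 6698891 reads (-0.47 to -0.33). *Ccng2* kept its call only without homozygote replicate 2 or the heterozygote library of 4294537 reads, and lost it when any of the other 7 libraries was left out (0.20 to 0.24).

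Downstream of p21, the DREAM complex represses cell cycle genes when p53 is active. All 15 genes of this list had a log2 fold change above 0 in homozygotes against controls, from 0.01 to 0.20 with a median of 0.12 (14 of 15 above 0 under quantile normalization, and a median of 0.07 after correction for gene length), and 1, *Cdk1*, was called. Against heterozygotes, 12 of the 15 were above 0, from -0.05 to 0.25, with a median of 0.06. *Cdk1*, the mitotic kinase, rose by 0.19 against controls and by 0.20 against heterozygotes, and none of the 15 fell, beside 15.2% and 13.6% of all genes called. The call of *Cdk1* against controls was lost without homozygote replicate 2 or any control library (0.16 to 0.19), and that against heterozygotes without homozygote replicate 2 or the heterozygote library of 7946683 or 4294537 reads (0.17 to 0.20).

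Because *Sesn2* and *Pmaip1* also respond to ATF4, the transcription factor of the integrated stress response, 14 ATF4 target genes were compared as well. In homozygotes against controls 3 rose, 1 fell and the median log2 fold change was 0.21, and against heterozygotes 5 rose, 1 fell and the median was 0.26. Of all genes, 15.2% and 13.6% were called in these comparisons, and 7.19% and 6.87% were called higher. *Trib3*, a pseudokinase, was 13.3 ± 1.75 in controls, 12.4 ± 3.18 in heterozygotes and 25.1 ± 2.28 in homozygotes, with log2 fold changes of 0.89 and 1.02 (adjusted p = 0.00313 and 0.00161, limma). *Phgdh*, the first enzyme of serine synthesis, rose by 0.56 and 0.58. *Vldlr*, a lipoprotein receptor, fell by 0.90 and 0.61. These 3 genes were called in both comparisons under each of the 19 other settings. *Mthfd2*, a mitochondrial folate enzyme, rose by 0.38 against controls, and its call was lost without homozygote replicate 3 (0.32). Asparagine synthetase (*Asns*, 0.63), *Atf5* (0.53) and the serine synthesis enzyme *Psat1* (0.34) rose against heterozygotes. Without homozygote replicate 3 these 3 calls were lost, and those of *Atf5* and *Psat1* also without the heterozygote library of 4294537 reads, that of *Psat1* further without homozygote replicate 2 or the heterozygote library of 9896345 reads, with values from 0.36 to 0.51 for *Atf5*, 0.26 to 0.35 for *Psat1* and 0.53 for *Asns*.

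The processing bore on these calls as well. Limma without the mean-variance trend ended those of *Bcl2l2*, *Cdk1*, *Cycs*, *Ep300*, *Mthfd2*, *Plk2*, *Rpl11*, *Rpl23*, *Rps27l* and *Sesn3* against controls and of *Asns*, *Atf5*, *Bcl2l2*, *Cdk1*, *Cycs*, *Phlda2*, *Psat1* and *Trp53bp1* against heterozygotes, with the same log2 fold changes. DESeq2 on the recovered reads did not call *Bcl2l2*, *Ccng2*, *Cdk1*, *Plk2* and *Polk* against controls, nor *Bcl2*, *Bcl2l2* and *Trp53bp1* against heterozygotes. A fit of only the groups compared did not call *Bcl2l2* and *Ccng2* against controls, nor *Bcl2* and *Trp53bp1* against heterozygotes. Quantile normalization also ended the calls of *Plk2* against controls (-0.24) and *Trp53bp1* against heterozygotes (-0.20), and correction for gene length those of *Bcl2* (-0.24) and *Phlda2* (1.59) against heterozygotes.

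In heterozygotes against controls, limma called 0 genes of these 6 lists. An unadjusted p under 0.05 was found for 4 of 20 regulators, 1 of 32 other p53 targets, 3 of 20 apoptosis genes, 1 of 11 relatives, 0 of 15 DREAM genes and 4 of 14 ATF4 targets, against 7.37% of all genes. DESeq2 on the recovered reads called 1 of these genes, the regulator *Hipk2*, a kinase that phosphorylates p53, which was lower in heterozygotes.

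**Figure D5:**
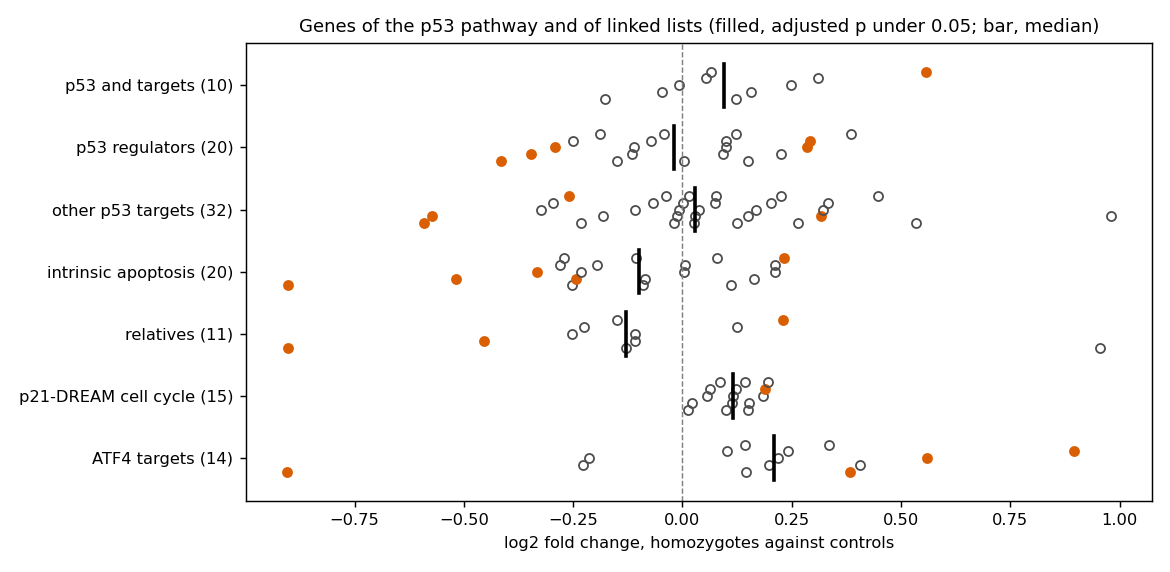
Log2 fold change in homozygotes against controls of each gene of the p53 set and of 6 linked lists (number of genes in parentheses), 1 point per gene, filled where the adjusted p (limma) was under 0.05, with a bar at the median of each list. In the p53 set the only filled point is *Phlda3* at 0.56 and the median is 0.09, the other p53 targets have filled points on both sides of 0, and the lowest filled points are *Bak1* and *Vldlr* at -0.90.

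For *Trp53* and *Cdkn1a*, the genes with the most similar pattern over the 9 libraries were sought among the 9846 genes whose mean normalized value reached 10. For *Trp53* these were *Ints8* (Pearson r = 0.97), *Stard3nl* (r = 0.93) and *1110012L19Rik* (r = 0.92). For *Cdkn1a* they were *Ly6e* (r = 0.93), *Gmpr* (r = 0.91) and *4933439F18Rik* (r = 0.91). The 9 libraries share genotypes and scaling, and these values are a description.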

How the data were processed

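RNA-seq was analyzed for 9 libraries (3 per genotype). The authors deposited a single table, with a normalized signal for each gene of the NCBIM37 transcriptome, and the submitters' processing notes name CASAVA 1.8, cutadapt, RSEM 1.20, Bowtie2 and limma, with no order. Each deposited signal was a read count with 0.5 added (100% of values whole within 0.01 reads), divided by the library size that TMM in edgeR gives. Columns were assigned to genotypes from the labels and the study's methods and supplement, because column names and sample titles use the word Het differently. The 10 members and all gene lists were chosen with earlier results of these data known.

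Values were analyzed as log2(value + 0.5), so fold changes of low genes are understated. Limma 3.58.1 in R 4.3.3 fitted all libraries with a mean-variance trend, 3 contrasts and Benjamini-Hochberg adjustment over 14011 genes, and adjusted p under 0.05 was called. The study calls the 3 pools of a genotype biological replicates, without saying whether they came from separate litters, and p-values measure the spread between these pools. Named genes were all members, the called genes of each pathway list (at most 8 by adjusted p), 7 relatives and regulators named regardless of value, genes overlapping a member or, after values were seen, *Bak1*, and the 3 genes most like *Trp53* and *Cdkn1a*. Alternatives were other pseudocounts, a filter on mean value, a fit of the compared groups, quantile normalization, limma without the trend, edgeR 4.0.16 and DESeq2 1.42.0 on recovered reads, loess correction for gene length, a replicate block and leaving out each library. GENCODE M1 gave coordinates and exonic lengths for 13987 genes, and near-identical copies were searched with BLAST+ 2.17.0.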

Additional observations from a re-analysis of the deposited data

How the results depend on the processing

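The number of p53 members called was 1 in homozygotes against controls and 0 in heterozygotes against controls under each alternative. In homozygotes against heterozygotes it was 1, and 0 with limma without the trend, and 0 to 1 when single libraries were left out. Of 30 member results, no uncalled one gained a call. Of 564 member values, 22 changed sign, all uncalled, none over 0.202 from 0 on the log2 scale, and the cause was not tested. With the length trend removed these were *Trp53inp1* in homozygotes against controls (0.027) and, in heterozygotes against controls, *Bax* (-0.0022) and *Trp53* (-0.0096). The others came with single libraries left out. In homozygotes against controls the log2 fold changes then ranged from -0.057 to 0.63 for *Bbc3*, -0.052 to 0.040 for *Ccng1*, -0.38 to 0.083 for *Pmaip1*, -0.0094 to 0.14 for *Trp53* and -0.12 to 0.022 for *Trp53inp1*. In homozygotes against heterozygotes the log2 fold changes then ranged from -0.20 to 0.48 for *Bbc3*, -0.057 to 0.18 for *Sesn2* and -0.028 to 0.13 for *Trp53*. In heterozygotes against controls the log2 fold changes then ranged from -0.027 to 0.068 for *Bax*, -0.031 to 0.24 for *Cdkn1a*, -0.058 to 0.17 for *Sesn2* and -0.059 to 0.094 for *Trp53*. The replicate block, on the final digit of the column names, kept *Phlda3* called (adjusted p = 0.00952 against controls and 0.0309 against heterozygotes, log2 fold changes 0.56 and 0.43). The numbers did not pair the libraries, since 1 of 9 same-numbered pairs correlated above 0.1 (r from -0.143 to 0.128). The block also ended the calls of *Ccng2*, *Cdk1* and *Plk2* against controls and of *Bcl2*, *Cdk1* and *Trp53bp1* against heterozygotes. The filter on a mean value of at least 5 left out *Bbc3* and *Pmaip1*. Of 40 called results of other named genes, 14 were called under every alternative and 0 changed sign. Few reads, 9 to 52 per library, and wide intervals limit what can be said of *Bbc3* and *Pmaip1*.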
